A study of Rattus norvegicus with 22 samples.

Results

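The axon guidance ligands and receptors are the secreted and membrane-bound cues that steer growing axons, together with the proteins that read them on the growth cone. They were taken by gene symbol: every gene with a probe set of its own whose symbol starts with Sema, Plxn, Nrp1, Nrp2, Efna, Efnb, Epha, Ephb, Ntn, Unc5 or Robo, or equals Slit1, Slit2, Slit3 or Dcc. This gave 59 of the 14217 genes that the arrays measured, through 98 probe sets, and each gene was read through its probe set with the highest mean. They are 17 semaphorins, 10 plexins and neuropilins, 5 ephrins, 12 Eph receptors, 3 netrins, Dcc with the 3 Unc5 receptors, 3 Slits and 3 Robo receptors. The letters Unc5 also take in Unc50 and Unc5cl, which are no netrin receptors, and 57 members remained without this pair.

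Rat spinal cord was profiled on Affymetrix arrays, with 22 arrays in 8 groups. The uninjured groups were normal cord (3 arrays) and cord exposed by laminectomy alone (3 arrays), for which the labels give no time after surgery. The 6 contused groups had a 10 g rod with a 2.5 mm tip dropped 25 mm onto the cord at T10, and tissue was taken 24 h later. They were contusion with no agent (2 arrays), clenbuterol, a beta-2 adrenergic agonist, at 150 mg/kg (2 arrays), X-ray at 10 Gy (3 arrays), tempol, a superoxide scavenger, at 275 mg/kg (3 arrays), buthionine sulfoximine (BSO), an inhibitor of glutathione synthesis, at 150 mg/kg (3 arrays), and tempol with BSO (3 arrays). BSO was injected 24 h ahead of the injury, and the other agents followed the injury by 20 min. Strain, sex and age are not given in the sources used here. Nor do the labels say that arrays come from separate animals, so p-values measure only the spread between these samples. The clenbuterol dose is as labelled, and its unit was not checked elsewhere. Markers of cord tissue were present, with a mean log2 signal of 15.16 for Mbp of myelin, 13.86 for Gfap of astrocytes and 11.72 for Snap25 of nerve terminals. The arrays labelled laminectomy 2 and normal 1 stood apart: their median correlation with the remaining arrays was 0.667 and 0.685, while that of every other array lay between 0.725 and 0.785. The differences of the members named in the comparisons with uninjured cord are therefore also given without this pair, and counts, lists and further probe sets use all arrays.

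Semaphorins are mostly repellent cues that act through plexins, and most of the secreted class 3 members need a neuropilin as the binding partner. Ephrins and Eph receptors signal at cell contacts in both directions and set boundaries between cells and territories. Netrins attract axons through Dcc and repel them through Unc5 receptors, while Slits repel through Robo receptors and keep commissural axons from recrossing the midline of the cord. In the injured adult cord several of these families are known from scar tissue, reactive astrocytes, oligodendrocytes and severed axons, and they are studied as barriers to regrowth.

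No member of the 59 differed past an adjusted p of 0.05 in any of the 10 comparisons made (limma's moderated test, Benjamini-Hochberg adjustment over 31042 probe sets), nor did any of the 98 probe sets. The values below are therefore measurements with their errors, and none is a called change. Because this is whole cord, fewer cells of a type and less RNA per cell cannot be told apart. Differences are in log2 units with the standard error after ±. A difference of 1 is a doubling of the signal.

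**Figure D1:**
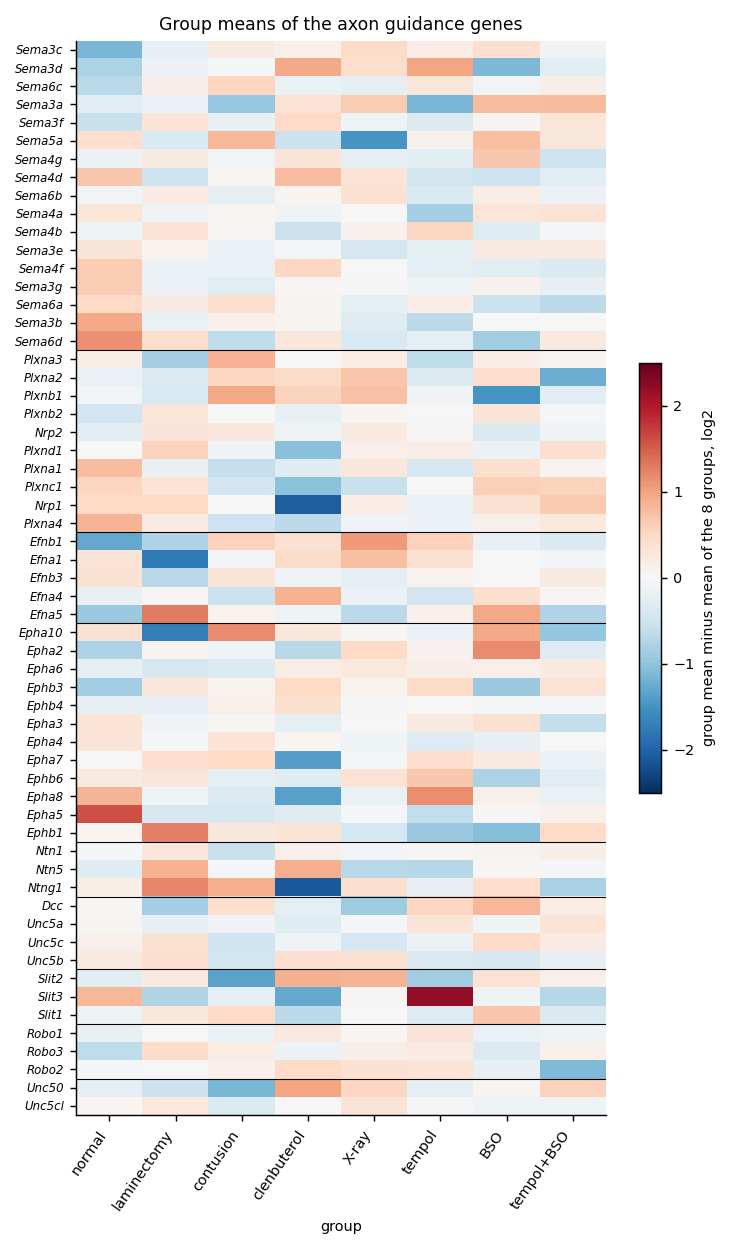
Mean log2 signal of each axon guidance gene in each of the 8 groups, minus the mean of that gene's 8 group means. Rows are the 59 genes by family, separated by lines, columns are the groups, and red is above and blue below the gene's own mean. Slit3 in the tempol group and Ntng1 and Nrp1 in the clenbuterol group give the deepest colours, and each rests on arrays that lie far apart within a group.

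Comparing the 16 contused arrays with the 6 uninjured arrays uses all arrays and gives the smallest errors, with a median standard error of 0.368 over the members. Each group entered with equal weight, so this contrast mixes the injury with the treatments. With limma, 0 of the 59 members passed the adjusted threshold, beside 0.319% of all probe sets. An unadjusted p under 0.05 was reached by 6 members, which is 10.2% of them beside 10.4% of all probe sets, with 3 higher in contused cord (4.95% of probe sets) and 3 lower (5.41%). The arrays overlapped for every member, and 0.129% of probe sets had none in common. The median member difference was -0.094, against 0.0058 over all genes (members without laminectomy 2 and normal 1: -0.19), with 25 members above and 34 below 0. For 24 members the 95% interval lay within a doubling in either direction, and for 2 it reached past a 4-fold difference. A 4-fold contrast between contused and uninjured cord thus lay outside the interval for the other 57 members.

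Efnb1, the transmembrane ephrin that binds EphB receptors and signals back into its own cell, had the smallest p of the members. Its log2 signal was 4.64, 7.97 and 6.62 in normal cord and 6.25, 7.75 and 6.77 after laminectomy. In contused cord without an agent it was 7.95 and 8.59, and the 3 X-ray arrays read 8.70, 8.71 and 8.89. Every contused array except BSO 2, at 6.20, lay above the uninjured median of 6.70, yet the groups overlapped, since uninjured arrays read up to 7.97. The difference was 1.37 ± 0.42, a 2.59-fold higher signal (adjusted p = 0.207, limma). Without laminectomy 2 and normal 1 it was 1.13, and leaving out any 1 array gave 0.93 to 1.76. The other Efnb1 probe set gave -0.55 ± 0.44 in the same comparison, so the sign was not shared between the gene's probe sets.

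Sema6d, a transmembrane semaphorin that acts through class A plexins, stood on the lower side. Normal cord read 9.61, 8.67 and 8.16, and laminectomy 7.95, 8.58 and 7.75. Untreated contusion read 6.47 and 7.59, below all 6 uninjured arrays. The full contused range ran from 5.22 to 8.58 with a median of 7.42, so the pooled groups overlapped through the clenbuterol, BSO and tempol plus BSO arrays. The difference was -1.05 ± 0.37 (adjusted p = 0.293, limma), and -0.73 without laminectomy 2 and normal 1. Sema6d has only 1 probe set.

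The other 4 members at an unadjusted p under 0.05 were smaller or rested more on single arrays. Plxna4, a plexin that partners neuropilins for class 3 semaphorins, ran from 6.92 to 8.65 (median 7.79) in uninjured and from 6.12 to 8.14 (median 7.21) in contused cord. Its difference was -0.69 ± 0.32 (adjusted p = 0.463), and -0.48 without the pair of arrays that stood apart. Its second probe set gave -0.19. Sema3c, a secreted class 3 semaphorin, ran from 7.12 to 10.68 (median 9.98) and from 9.35 to 11.23 (median 10.44), with a difference of 0.90 ± 0.41 (adjusted p = 0.464). The lowest Sema3c value of all arrays was 7.12 on normal 3, followed by 8.64 on laminectomy 3. The Sema3c difference was 0.42 without normal 3, 0.57 without laminectomy 3, and 1.38 without laminectomy 2 and normal 1. Efna1, a membrane-anchored ephrin of endothelium and other tissues, ran from 2.74 to 7.56 (median 6.17) and from 5.51 to 7.63 (median 6.60). Its difference of 0.96 ± 0.45 (adjusted p = 0.470) was 0.16 without the pair, in which laminectomy 2 held the lowest value. Ephb1, an EphB receptor, ran from 6.39 to 8.54 (median 8.04) and from 5.60 to 8.86 (median 6.57), with a difference of -0.86 ± 0.41 (adjusted p = 0.474) and -0.62 without the pair. The contused Ephb1 arrays were mostly low, but contusion 1, clenbuterol 2 and tempol plus BSO 1 lay at or above the uninjured median.

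**Figure D2:**
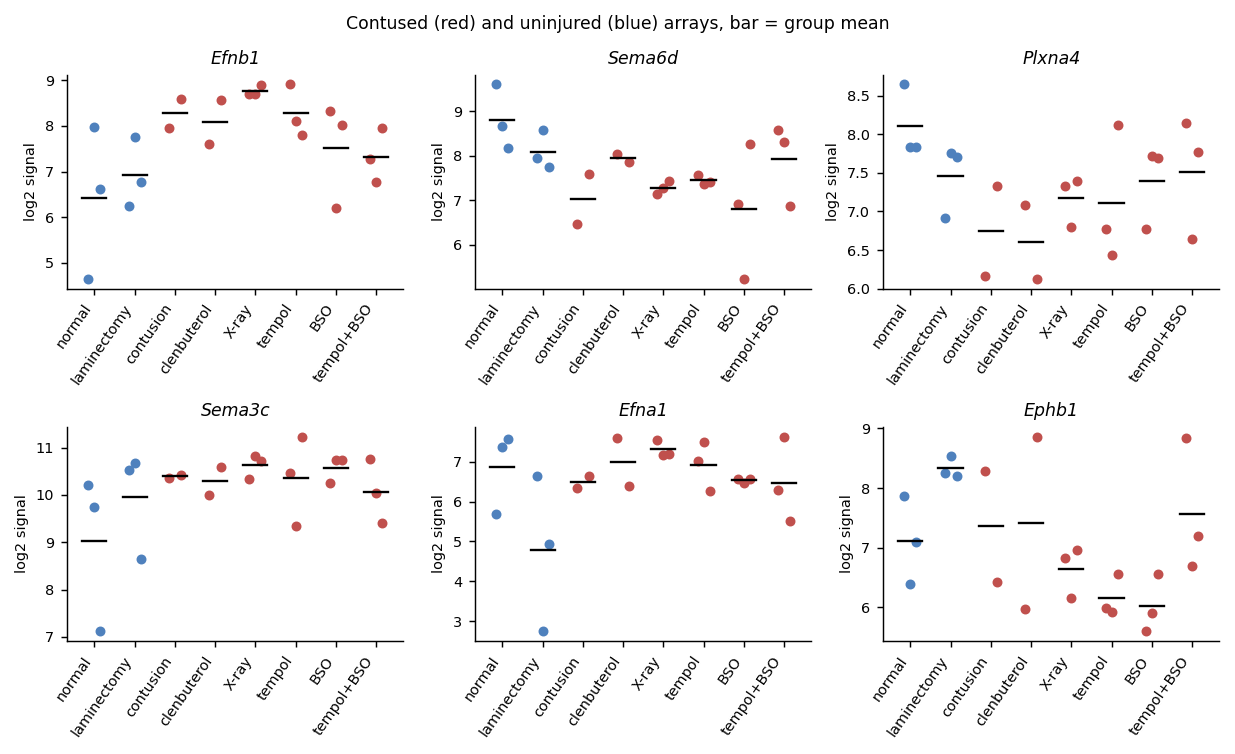
Log2 signal on each array for the 6 members with the smallest p between contused and uninjured cord, by group. Blue points are uninjured arrays, red points contused arrays, and black bars group means. In every panel the blue and red ranges overlap. Efnb1 averages 6.67 in uninjured and 8.04 in contused groups, and Sema6d 8.45 and 7.40.

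By family, the semaphorin ligands were spread on both sides, 5 higher and 12 lower in contused cord, with a median of -0.10. Sema3a, the best known collapsing factor for growth cones, averaged 3.65 in contused and 3.35 in uninjured groups, a difference of 0.30 ± 0.58, and its mean signal was low. Sema3f, the secreted ligand that prefers neuropilin 2, differed by 0.16 ± 0.28. Sema4d, a semaphorin of oligodendrocytes that acts on Plxnb1, differed by -0.095 ± 0.34 and turned to 0.21 without laminectomy 2 and normal 1. None of these differences exceeded its standard error. Without the pair Sema3a gave 0.31 and Sema3f 0.13.

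Among the semaphorin receptors 4 were higher and 6 lower, with a median of -0.20. Nrp1, the receptor subunit shared by Sema3a and vascular growth factors, differed by -0.67 ± 0.36 (adjusted p = 0.539) and by -0.32 without the pair. Its other probe set gave -1.26 ± 0.56, the same sign, with an adjusted p of 0.441. Nrp2, the receptor subunit preferred by Sema3f, lay between 9.08 and 10.56 on all 22 arrays, and the difference was -0.034 ± 0.22, with a 95% interval from -0.51 to 0.44. The class A plexins that transmit class 3 semaphorin signals were -0.39 ± 0.28 for Plxna1, 0.34 ± 0.56 for Plxna2 and 0.43 ± 0.36 for Plxna3. Plxnb1, the receptor for Sema4d, differed by 0.29 ± 0.38. Without laminectomy 2 and normal 1 the values were 0.044 for Nrp2, -0.35 for Plxna1, -0.069 for Plxna2, 0.083 for Plxna3 and 0.051 for Plxnb1, so that Nrp2 and Plxna2 turned in sign.

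Of the 5 ephrins 4 were higher and 1 lower in contused cord, and of the 12 Eph receptors 5 were higher and 7 lower. The ephrin median was 0.20 and the receptor median -0.17. Beside Efnb1, the transmembrane Efnb3, a myelin-associated ephrin that repels corticospinal axons, differed by 0.20 ± 0.29, and the membrane-anchored Efna5 by -0.24 ± 0.46. Epha4, the receptor through which corticospinal axons are repelled and which reactive astrocytes carry, ran from 5.20 to 8.52 in uninjured and from 5.95 to 8.10 in contused cord. Its difference was -0.20 ± 0.44, while its 3 further probe sets gave -1.31 ± 0.49 (adjusted p = 0.338), -0.0089 and -0.28. The 4 readings of Epha4 thus shared the sign and ran from -1.31 to -0.0089, with none past the threshold. Epha7 and Ephb3, receptors of each class, differed by -0.28 ± 0.39 and 0.39 ± 0.36. Without the pair Efnb3 gave 0.12, Efna5 -0.27, Epha4 -0.72, Epha7 -0.19 and Ephb3 -0.059.

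The 3 netrins were all on the lower side in contused cord on the probe sets used. Their median of -0.37 is the value of Ntn5, at a mean log2 signal of only 4.29. Ntn1, the diffusible midline attractant, read 6.97 to 8.46 in contused and 7.30 to 8.34 in uninjured cord, a difference of -0.18 ± 0.25. Its further probe sets gave 0.038 and -0.68. The dim Ntng1 gave -0.91 ± 0.57. The attractive receptor Dcc differed by 0.55 ± 0.30 (adjusted p = 0.548). The repulsive receptors Unc5a, Unc5b and Unc5c differed by 0.087 ± 0.32, -0.43 ± 0.31 and -0.34 ± 0.23. Dcc and Unc5a thus lay on the higher side and Unc5b and Unc5c on the lower, all with intervals that include 0. The second probe set gave -0.16 ± 0.40 for Unc5b and 0.99 ± 0.61 for Unc5c, so the sign of Unc5c depends on the probe set read. The Robo receptors were close to level, at 0.13 ± 0.24 for Robo1, 0.041 ± 0.40 for Robo2 and 0.12 ± 0.32 for Robo3. The Slit ligands gave -0.094 ± 0.68 for Slit1, 0.032 ± 0.39 for Slit2 and -0.055 ± 0.92 for Slit3. The wide errors of Slit1 and Slit3 leave room for a doubling either way, whereas the Robo1 interval, from -0.38 to 0.64, does not. Without the pair Ntn1 gave -0.20, Dcc 0.31, Unc5a -0.29, Unc5b -0.20, Unc5c -0.26, Slit1 -0.71, Slit2 0.41, Slit3 -0.69, Robo1 -0.0014 and Robo2 -0.070. Unc5a, Robo1 and Robo2 turned in sign.

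**Figure D3:**
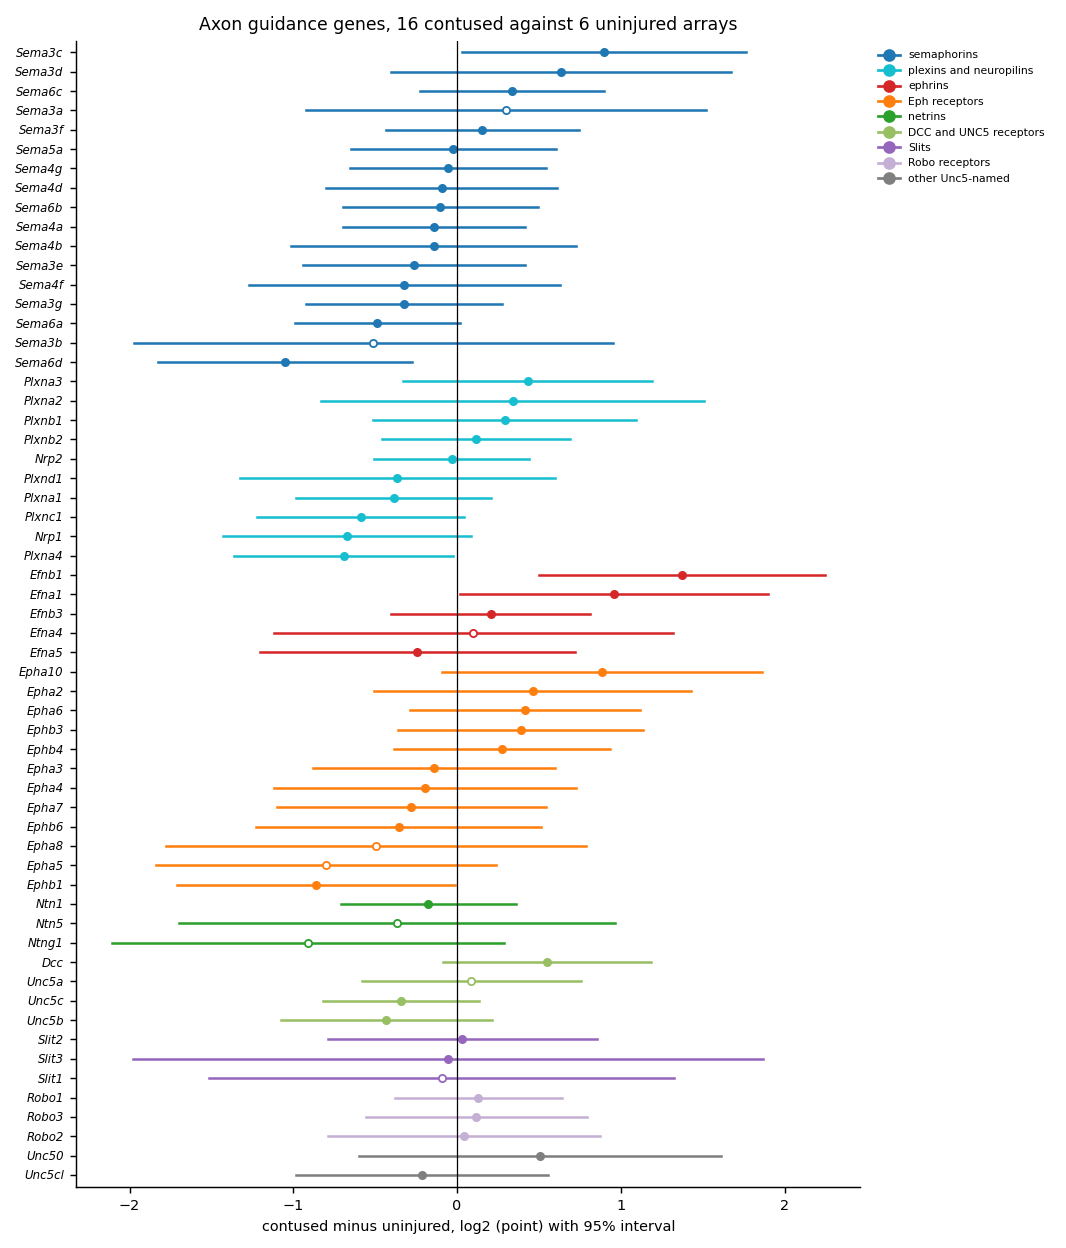
Difference between contused and uninjured cord for all 59 genes, in log2 units, as a point with its 95% interval. Genes are grouped by family in colour, and open points mark the 9 genes with a mean log2 signal under 6. The intervals of 6 genes miss 0: Efnb1, Sema3c and Efna1 to the right and Sema6d, Plxna4 and Ephb1 to the left. Those of Slit3, which is not dim, and of the dim Sema3b and Slit1 are the widest.

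Genes of other cell types moved with this contrast. Of the marker genes listed for each type, all 12 neuronal ones were lower in contused cord, as were all 9 of mature oligodendrocytes and all 5 of oligodendrocyte progenitors. Each of these lists had 1 gene past the threshold (Nefl at -1.49, Ugt8 at -1.39 and Olig1 at -1.06), which 0.319% of all probe sets passed. Astrocyte markers were lower in 6 of 8, with Aqp4 and Slc4a4 past the threshold. Microglia and macrophage markers were higher in 10 of 11, with Gpnmb, Arg1 and Cd14 past it, and neutrophil markers in 5 of 5, with S100a8 and S100a9 past it. The log2 of the summed neuronal signal ran from 14.14 to 15.27 in uninjured and from 12.49 to 14.32 in contused cord, and that of neutrophil markers from 8.39 to 9.93 and from 10.29 to 12.09. Hbb, a globin of red cells, was higher by 2.99. Endothelial markers, whose summed signal ran from 11.05 to 11.52 and from 10.51 to 11.87, and those of fibroblasts and pericytes, from 11.85 to 12.33 and from 11.54 to 12.41, had no gene past the threshold, and neither did Schwann cell or T and B cell markers. The part of these cell types in the member values was not tested.

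Signal transduction genes of the same pathway, with neighbouring growth inhibitors, were read from a list of 46 genes, of which 42 were measured. In contused against uninjured cord 13 were higher and 29 lower, with a median of -0.18. At an unadjusted p under 0.05 there were 6, all lower (14.3%, beside 10.4% of probe sets, 5.41% on the lower side). The adjusted threshold was passed by 1, beside 0.319% of probe sets. That gene was Omg, a myelin glycoprotein that acts on the Nogo receptor to restrain growth, which fell by 2.18 ± 0.34 (adjusted p = 0.00585, limma). Other inhibitors of myelin gave -0.51 ± 0.22 for Mag and -0.36 ± 0.28 for Rtn4 (Nogo), and the Nogo receptor Rtn4r gave 0.010 ± 0.33. The kinases Pak1 and Limk1, which act on actin below the guidance receptors, gave -1.11 ± 0.30 (adjusted p = 0.144) and -1.37 ± 0.45 (adjusted p = 0.256). The collapsin response mediators Dpysl2 and Crmp1, which carry semaphorin signals to microtubules, gave -0.54 ± 0.35 and -0.50 ± 0.22. Of the same family, Dpysl3 gave -0.23 ± 0.46 and Dpysl5, with a mean log2 signal of 4.26, gave -0.68 ± 0.36. Dpysl4 gave 0.61 ± 0.40, so the sign was not shared within the family. In the other 9 comparisons 0 of the 42 genes passed in limma, with 0 to 3 at an unadjusted p under 0.05, beside 2.82% to 6.65% of probe sets.

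Laminectomy against normal cord asks what exposing the cord does by itself. With limma 0 members passed, beside 0.00644% of probe sets. Of the members 5 had an unadjusted p under 0.05 (8.47%, beside 5.59% of probe sets), 1 higher (beside 2.96%) and 4 lower (beside 2.63%), and all 5 belong to the ephrin and Eph families. Efna5, an ephrin that shapes topographic maps, read 5.27, 4.96 and 6.40 in normal cord and 7.11, 7.94 and 8.24 after laminectomy, so the groups did not overlap. The difference was 2.22 ± 0.78 (adjusted p = 0.718), and 2.00 without laminectomy 2 and normal 1. Its second probe set gave -1.89, the opposite sign. Epha10, an Eph receptor thought to lack kinase activity, read 5.90, 7.84 and 7.55 in normal cord and 5.17, 4.31 and 5.58 after laminectomy, again without overlap, a difference of -2.07 ± 0.79 (adjusted p = 0.783) and -2.32 without the pair.

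The other 3 of these members overlapped between the groups. Efna1 read 5.69, 7.36 and 7.56 in normal cord and 6.65, 2.74 and 4.94 after laminectomy, a difference of -2.09 ± 0.76 (adjusted p = 0.773), -1.08 without laminectomy 2 and -1.66 without the pair. Epha5, a receptor for membrane-anchored ephrins, read 6.90, 6.91 and 2.56 against 3.99, 3.00 and 3.31, a difference of -2.02 ± 0.84 (adjusted p = 0.832). The high Epha5 values of normal 1 and normal 2 set this difference, which was -1.30 without either of them, -3.47 without normal 3, and -1.08 without the pair. Efnb3 differed by -1.09 ± 0.49, and by -0.68 without the pair. Of the semaphorins, Sema4d gave the smallest p, at -1.19 ± 0.57, with -0.76 without laminectomy 3 and -1.50 without the pair. In all 6 members had groups that did not overlap, 10.2% beside 8.57% of probe sets.

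Contusion beyond the surgery was read against laminectomy, with 2 contusion arrays. Here 0 members passed in limma, beside 0.00322% of probe sets. There were 5 at an unadjusted p under 0.05 (8.47%, beside 5.38%), 4 higher (beside 2.49%) and 1 lower (beside 2.88%), and 11 members had groups that did not overlap (18.6%, beside 19.9%). Epha10 read 8.55 and 7.27 in contusion, above all 3 laminectomy arrays, a difference of 2.88 ± 0.88 (adjusted p = 0.899). The same laminectomy arrays lay low against normal cord, and against normal cord contusion differed by only 0.81 for this gene. Plxna3 read 11.02 and 10.37 against 8.29, 8.69 and 10.06, a difference of 1.68 ± 0.69, while its second probe set gave -0.47. Dcc read 8.16 and 8.03 against 7.54, 6.63 and 6.28, a difference of 1.28 ± 0.57.

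Sema5a, a transmembrane semaphorin that can attract or repel, read 8.95 and 8.34 in contusion against 7.08, 8.13 and 7.10 after laminectomy, a difference of 1.21 ± 0.57. Its 3 further probe sets gave -1.37, -0.18 and -2.08, and the mean of all 4 was -0.61. Slit2 read 5.45 and 6.24 against 6.33, 7.99 and 7.91, a difference of -1.57 ± 0.74, and its further probe sets gave -1.30 and -1.03. For Slit2 the 3 probe sets thus shared the sign, which Sema5a and Plxna3 did not show. The Slit2 probe set at -1.03 was dim, however, with a mean log2 signal of 3.26. It read 1.43 and 1.72 in contusion against 1.49, 2.96 and 3.38 after laminectomy, so its groups overlapped. Unc5c, a netrin receptor for repulsion, differed by -0.89 ± 0.43, with 1.78 in its second probe set. Its value was -1.47 without contusion 1 and -0.30 without contusion 2. Without laminectomy 2 and normal 1 the differences were 2.53 for Epha10, 1.52 for Plxna3, 1.18 for Dcc, 1.56 for Sema5a, -1.28 for Slit2 and -0.81 for Unc5c, all with the same sign.

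Contusion against normal cord, the injury and the surgery together, gave 0 members past the threshold in limma, beside 0.0483% of probe sets. The unadjusted p was under 0.05 for 6 (10.2%, beside 6.65%), 2 higher (beside 3.12%) and 4 lower (beside 3.52%), and 9 had groups that did not overlap (15.3%, beside 22.2%). Sema6d gave the smallest p, at -1.78 ± 0.70 (adjusted p = 0.614) and -1.39 without normal 1. Plxna1 read 7.17 and 6.53 against 8.34, 7.61 and 8.66, below all normal arrays, a difference of -1.35 ± 0.54 (adjusted p = 0.623). Of its further probe sets 1 gave -0.91 and the other -0.036. Plxna4 differed by -1.36 ± 0.60, also without overlap, and by -0.78 without contusion 1. Without normal 1 Plxna1 gave -1.28 and Plxna4 -1.09, and the second Plxna4 probe set gave -0.49 with all arrays. The class A plexins Plxna2 and Plxna3 gave 0.67 and 0.69. Their further probe sets gave -0.33 and -0.92 for Plxna2 and -1.01 for Plxna3, so for these 2 members the sign depends on the probe set read.

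Sema6c, a transmembrane semaphorin of muscle and brain, read 11.71 and 12.38 in contusion against 11.12, 11.48 and 9.93 in normal cord. The difference was 1.20 ± 0.51 (adjusted p = 0.661), 0.75 without normal 3 and 1.34 without normal 1, and its further probe sets gave 0.22 and 0.36. Efnb1 differed by 1.86 ± 0.79 (adjusted p = 0.665), and by 0.98 without normal 1, where it had its lowest value of all arrays. Epha5 differed by -2.02 ± 0.94, by -1.30 without normal 1, by -1.29 without normal 2 and by -3.47 without normal 3. Against normal cord the neuronal markers were lower in 12 of 12 and the oligodendrocyte markers in 9 of 9. Of these, 5 and 4 had an unadjusted p under 0.05 (beside 6.65% of probe sets), and none passed the adjusted threshold. Neutrophil markers were higher in 5 of 5, and microglia and macrophage markers in 8 of 11, of which 1 passed the adjusted threshold (beside 0.0483% of probe sets). The summed neuronal log2 signal was 14.51 to 15.27 in normal cord and 12.49 to 13.50 in contusion, and that of microglia and macrophages 12.68 to 12.79 and 14.10 to 14.16. Their part in the member values was not tested. The lowest adjusted p of any of the 98 probe sets over all comparisons fell here, for a Slit2 probe set other than the one used, at -4.01 ± 0.86 (adjusted p = 0.144). On that probe set normal cord read 5.73, 5.30 and 5.72 and contusion 1.43 and 1.72, yet its mean log2 signal was 3.26 and the Slit2 probe set used differed by -1.05. It was singled out after its values were seen.

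The treatments were each read against contusion with no agent, so all 5 comparisons share the same 2 contusion arrays and none is independent of the others. With 2 or 3 arrays in a group the median standard error of the members was 0.764 for clenbuterol and 0.697 for the rest. In these 5 comparisons 23 to 31 members had an interval that reached past a 4-fold difference. No marker gene of any cell type list passed the threshold in them, but some lists lay to 1 side. Oligodendrocyte markers were higher than in contusion in 9 of 9 with clenbuterol (median 0.64) and in 9 of 9 with X-ray (median 0.33). Their summed log2 signal ran from 15.09 to 15.73 in contusion, 15.65 to 16.26 with clenbuterol and 15.33 to 15.76 with X-ray. The astrocyte sum, 14.26 to 14.37 in contusion, was 14.86 to 15.03 with clenbuterol and 14.99 to 15.07 with X-ray. Astrocyte markers were higher in 6 and lower in 2 with clenbuterol, and higher in 7 and lower in 1 with X-ray. The microglia and macrophage sum was 14.10 to 14.16 in contusion and 13.20 on both clenbuterol arrays. It lay between 13.61 and 13.99 with tempol, BSO or their combination. By gene, 3 of these 11 markers were higher and 8 lower with clenbuterol, 5 and 6 with BSO, and 4 and 7 with tempol or tempol plus BSO. Neuronal markers were higher in 11 of 12 with tempol and in 10 of 12 with X-ray or tempol plus BSO. Oligodendrocyte progenitor markers were lower in 5 of 5 with tempol. The neutrophil sum was 10.77 to 11.11 in contusion and 11.58 to 12.09 with X-ray, with 4 of these markers higher and 1 lower. Their part in the member values was not tested.

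Slit2, a midline repellent, had its lowest group mean in untreated contusion, on the arrays that all 5 comparisons share. Contusion read 5.45 and 6.24, clenbuterol 7.47 and 8.68, X-ray 8.04, 7.70 and 8.37, and BSO 8.24, 8.01 and 6.38. Tempol plus BSO read 7.74, 6.82 and 7.34, and tempol alone 7.37, 5.12 and 6.45. Every array of 4 treated groups lay above both contusion arrays, and tempol alone overlapped them. The differences were 2.23 ± 0.81, 2.19 ± 0.74, 1.70 ± 0.74 and 1.45 ± 0.74, and 0.47 for tempol, while normal cord at 7.82, 6.89 and 5.98 overlapped both the contusion and the treated arrays. Adjusted p-values were 0.847 to 1.00 for the 4 groups. The further Slit2 probe sets gave 1.03 and 2.02 with clenbuterol, 1.44 and -0.40 with X-ray, 0.40 and 1.63 with BSO, and 0.20 and 1.91 with tempol plus BSO. In each pair the second value is from the dim probe set with a mean log2 signal of 3.26.

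With clenbuterol 0 members passed in limma, beside 0.00322% of probe sets. An unadjusted p under 0.05 was found for 5 (8.47%, beside 5.36%), 1 higher (beside 2.32%) and 4 lower (beside 3.03%), and 19 did not overlap (32.2%, beside 35.5%, with 2 arrays on each side). Nrp1 read 5.84 and 3.19 against 6.82 and 6.36, a difference of -2.08 ± 0.75 (adjusted p = 0.844). The value of 3.19 on clenbuterol 2 was the lowest of all 22 arrays, and the difference ran from -3.40 to -0.75 when any 1 array was left out. Its other probe set gave -0.59. Ntng1, a membrane-anchored netrin relative that binds no Dcc, read 1.63 and 3.49 against 4.67 and 6.48, a difference of -3.01 ± 1.19 at a low signal.

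With X-ray 0 members passed, beside 0% of probe sets. Unadjusted p-values under 0.05 were found for 3 (5.08%, beside 4.81%), 1 higher (beside 2.26%) and 2 lower (beside 2.54%), and 9 did not overlap (15.3%, beside 24.2%). Sema5a had the smallest unadjusted p of all member comparisons, 0.000673, with an adjusted p of 0.942 in limma. It read 6.91, 4.97 and 7.13 after X-ray against 8.95 and 8.34, a difference of -2.31 ± 0.57, and -2.71 to -1.63 when any 1 array was left out. Clenbuterol arrays, at 7.43 and 7.13, were also below both contusion arrays. So were tempol at 8.29, 7.96 and 7.52, tempol plus BSO at 7.95, 8.19 and 8.18, and laminectomy at 7.08, 8.13 and 7.10. BSO at 9.05, 8.17 and 8.48 and normal cord at 8.50, 8.19 and 7.99 overlapped contusion. Untreated contusion had the highest group mean of Sema5a. The 3 further Sema5a probe sets gave 2.13, 0.23 and 1.13 with X-ray, and the mean of all 4 was 0.29, so the sign depends on the probe set read. Dcc, with 1 probe set, read 7.02, 6.45 and 6.88 against 8.16 and 8.03, a difference of -1.31 ± 0.57.

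With tempol 0 members passed, beside 0% of probe sets. Only 1 member, a lower one, had an unadjusted p under 0.05 (1.69%, beside 2.82% in either direction, 1.59% higher and 1.23% lower), and 6 did not overlap (10.2%, beside 16.2%). That member was Plxna3, which read 9.30, 9.64 and 8.65 against 11.02 and 10.37, a difference of -1.50 ± 0.69 (adjusted p = 1.00), with 1.16 in its second probe set. Sema4a, a semaphorin also known from immune cells, and Ephb1 followed, at -0.88 ± 0.51 and -1.20 ± 0.77. Sema4a was -0.45 without contusion 2 and -0.51 without tempol 2, and Ephb1 was -0.27 without contusion 1 and -2.13 without contusion 2. Slit3 gave the largest difference in size, 2.44 ± 1.74, from tempol arrays at 10.67, 10.75 and 6.89.

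With BSO 0 members passed, beside 0% of probe sets. There were 4 members at an unadjusted p under 0.05 (6.78%, beside 3.46%), 2 higher (beside 1.88%) and 2 lower (beside 1.58%), and 12 did not overlap (20.3%, beside 16.8%). Plxnb1 read 6.67, 8.09 and 7.65 against 9.85 and 9.96, a difference of -2.44 ± 0.73 (adjusted p = 1.00), and -2.75 to -2.04 when any 1 array was left out. All 3 BSO arrays lay below the normal arrays at 8.95, 8.83 and 8.87 as well, but they overlapped laminectomy at 8.01, 7.54 and 10.14. The further Plxnb1 probe sets gave 0.46 and -0.32. Unc5c read 8.58, 8.63 and 8.93 against 8.32 and 7.15, a difference of 0.98 ± 0.43, with -0.55 in its second probe set. The Unc5c value was 1.57 without contusion 1 and 0.40 without contusion 2.

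With tempol and BSO together 0 members passed, beside 0% of probe sets. For 2 members the unadjusted p was under 0.05, both lower (3.39%, beside 3.98% in either direction, 2.28% higher and 1.71% lower), and 14 did not overlap (23.7%, beside 18%). Epha10 read 6.96, 4.60 and 5.73 against 8.55 and 7.27, a difference of -2.14 ± 0.88. Sema6a, a transmembrane semaphorin that acts on Plxna2 and Plxna4, read 7.62, 7.32 and 7.08 against 8.44 and 8.40, a difference of -1.08 ± 0.46, and BSO alone gave -0.96 ± 0.46. Its 4 further probe sets gave 0.86, 1.12, 0.45 and -0.95 with tempol plus BSO.

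Whether tempol acted differently with and without BSO was tested as an interaction, in which 0 members passed, beside 0% of probe sets. The unadjusted p was below 0.05 for 2, both higher (3.39%, beside 3.44% in either direction, 1.68% higher and 1.77% lower). Ephb1 gave 2.75 ± 1.03, from tempol plus BSO arrays at 8.84, 6.69 and 7.19 against BSO arrays at 5.60, 5.90 and 6.57 and tempol arrays at 5.98, 5.92 and 6.57. The 2 contusion arrays of Ephb1 lay apart, at 8.29 and 6.43, and the value ran from 1.82 to 3.68 when any 1 array was left out. Plxnb1 gave 2.26 ± 0.98 and Efna5 -1.77 ± 1.17, the latter from -2.90 to -1.16 when a BSO array was left out.

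**Figure D4:**
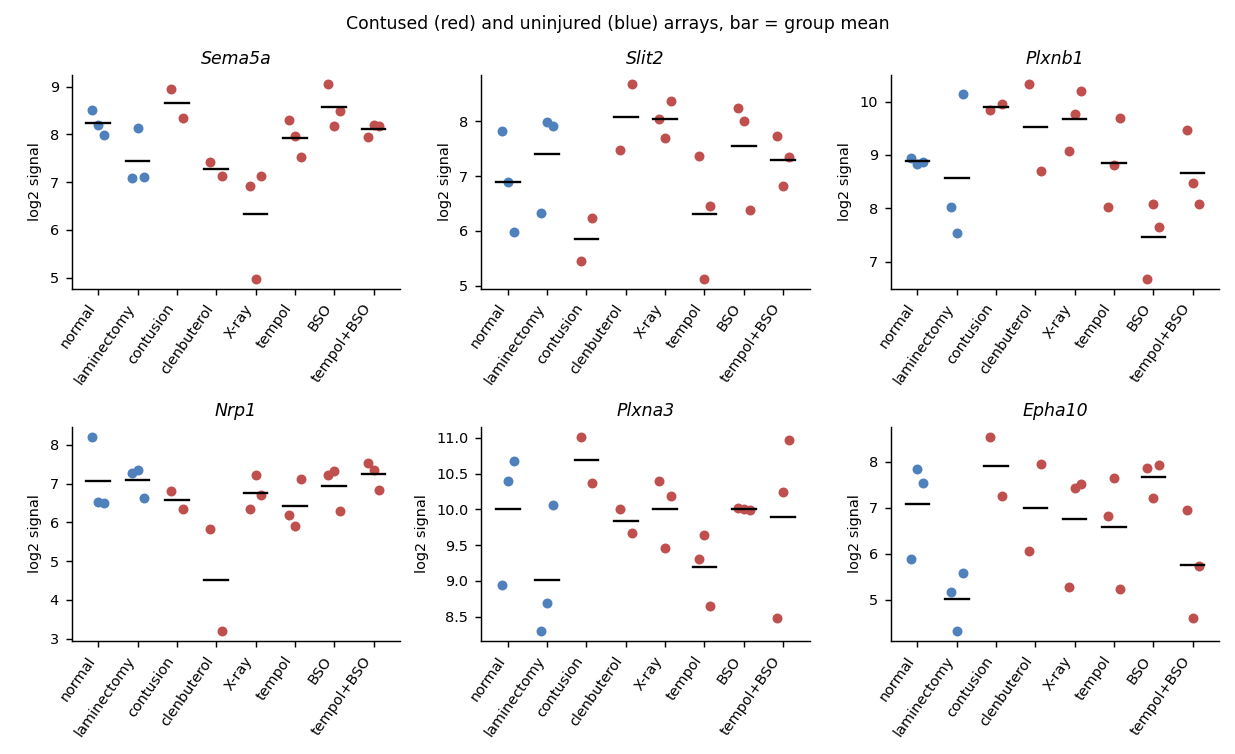
Log2 signal on each array for 6 members with small p-values in the treatment comparisons, by group. Blue points are uninjured arrays, red points contused arrays, and black bars group means. The X-ray arrays of Sema5a lie at 4.97 to 7.13 against 8.34 and 8.95 in contusion, and the Slit2 contusion arrays lie at 5.45 and 6.24, below all arrays of 4 treated groups.

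The members differed widely in how closely arrays of 1 group matched each other. The standard deviation within groups had a median of 0.771 over the members, against 0.856 over all probe sets. Nrp2 (0.326), Unc5c (0.338), Sema6a (0.383), Robo1 (0.396) and Ntn1 (0.432) were the tightest, and Slit3, whose arrays ran from 3.36 to 11.33, was the loosest at 2.16. The 9 members with a mean log2 signal under 6 (a signal of 64) had a median of 1.33 against 0.736 for the other 50. Among the 9 were Sema3a, Epha5, Ntng1, Slit1 and Unc5a, of which Unc5a was tighter, at 0.633. A comparison of the Sema3a or Slit1 signal is thus much less precise than one of Nrp2 or Robo1.

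Of the members, 35 had 1 probe set and 24 had several. Over the 22 arrays the 39 further probe sets had a median correlation of 0.103 with the one used for the same gene, from -0.375 to 0.522, with 13 below 0 and 1 above 0.5. In contused against uninjured cord 24 of the 39 had the same sign as the probe set used. At an unadjusted p under 0.05 there were 7 of them (17.9%, beside 10.4% of all probe sets): Efna5 at 1.16 and Plxna1 at 0.91, and Epha4 at -1.31, Epha7 at -1.40, Nrp1 at -1.26, Plxnc1 at -1.01 and Slit2 at -1.18. Their adjusted p-values were 0.338 to 0.441 in limma. For Efna5, Plxna1 and Slit2 the probe set used had the opposite sign in this comparison, and for Epha4, Epha7, Nrp1 and Plxnc1 the same sign.

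**Figure D5:**
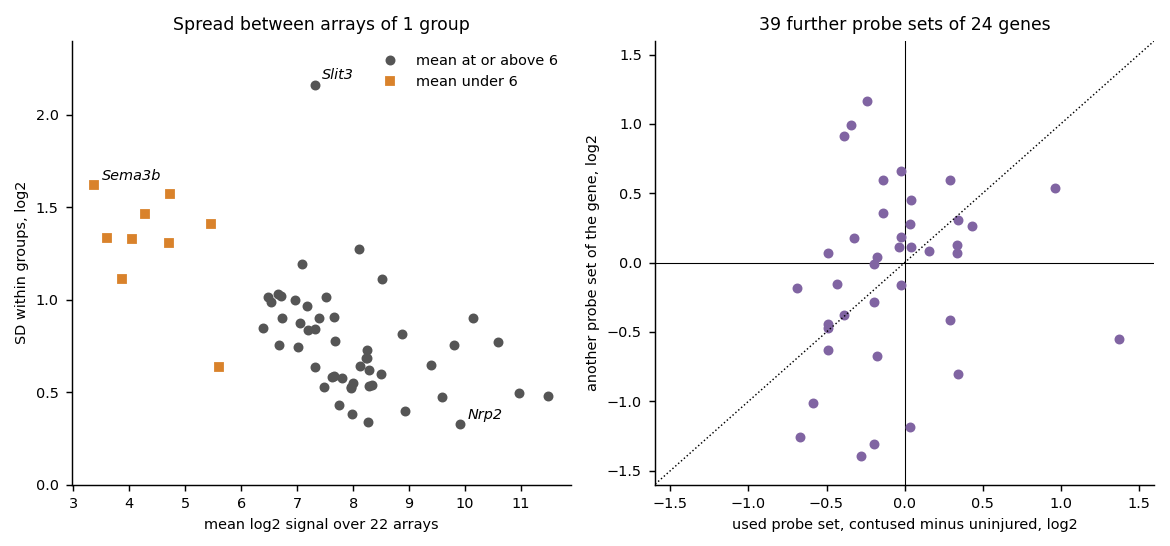
On the left, the standard deviation within groups (log2) of each of the 59 members against its mean log2 signal, with orange squares for the 9 members under 6. On the right, the difference between contused and uninjured cord (log2) in each of the 39 further probe sets against that in the probe set used for the same gene, with a dotted line where both are equal. Dim genes are mostly the more variable. Among brighter ones Slit3 is the most variable, and Plxna2 (1.27) and Unc50 (1.19) also lie above the dim Epha5 (1.11). Of the 39 points, 24 share a sign with the probe set used.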

How the data were processed

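The authors' deposited values are intensities on a linear scale, with 1 value for each probe set and array. RMA is named in the submitters' processing notes, but these values are linear and differ in distribution between arrays: every array has the same mean of 250 after trimming 2% at each end, and signals run from 0.3 to 154527.2. They were log2-transformed here with no further scaling. After 57 control probe sets were left out, 31042 entered 1 limma 3.58.1 fit in R 4.3.3 with 8 group means and eBayes moderation, checked on simulated data. Two-sided p-values were adjusted over all 31042 probe sets (Benjamini-Hochberg, threshold 0.05). Contused against uninjured cord is the mean of 6 group means minus the mean of 2. Genes were named from the platform annotation, where 20826 probe sets carry 1 symbol, and all 59 members matched the RefSeq gene table (GRCr8) by Entrez number. No genome build of the authors is known here, so coordinates are left out. The number of arrays limits the precision.

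The members and lists were chosen with earlier results of these data known. Members named were the 6 with the smallest p in each of the 4 injury comparisons, the 3 smallest in each treatment comparison and the interaction, and 30 genes known from cord injury, of which 26 were measured (Sema7a, Ephb2, Efnb2 and Robo4 are not analysed here). Other members are named as extremes or as probe set examples, and were chosen after their values were seen. Alternatives tried were an offset of 32 before the log, quantile normalization, a filter on low signal, array weights, trend and robust moderation, fits of only the groups compared, replicate number as a block, averaging the probe sets of each gene, leaving out each array, leaving out laminectomy 2 with normal 1, and, chosen after seeing the data, leaving out Unc50 and Unc5cl. Fits that leave 1 array in a group assume that it varies like the other groups.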

Additional observations from a re-analysis of the deposited data

How the results depend on the processing

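No member passed the adjusted threshold under any of the 32 alternative settings, in any of the 10 comparisons. The lowest adjusted p of a named result under any setting was 0.0691 in limma, for Epha5 in laminectomy against normal cord. In the main fit this result had an adjusted p of 0.832, and Epha5 is dim, with a mean log2 signal of 3.88. Over 66 named results, 48 kept their sign under every setting that gave a value. With the offset of 32, Slit3 turned to 0.090 between contused and uninjured cord. With array weights, Sema4d turned to 0.064, Unc5a to -0.095 and Robo2 to -0.11 there. The mean of all probe sets turned Nrp2 to 0.039, Plxna1 to 0.049, Plxna2 to -0.052, Efna5 to 0.46, Unc5c to 0.32 and Slit2 to -0.29 there. It also turned Sema5a to -0.61 and Unc5c to 0.45 in contusion against laminectomy, Sema5a to 0.29 with X-ray and Sema6a to 0.080 with tempol plus BSO. Without laminectomy 2 and normal 1, Sema4d turned to 0.21, Nrp2 to 0.044, Plxna2 to -0.069, Ephb3 to -0.059, Unc5a to -0.29, Robo1 to -0.0014 and Robo2 to -0.070. Leaving out 1 array at a time took the contused minus uninjured value from -0.69 to 0.14 for Epha4, -0.098 to 0.082 for Nrp2, -0.079 to 0.71 for Plxna2, -0.0057 to 0.31 for Robo1, -0.17 to 0.30 for Robo2, -0.31 to 0.13 for Sema4d, -0.44 to 0.36 for Slit1, -0.24 to 0.26 for Slit2, -0.45 to 0.31 for Slit3 and -0.18 to 0.23 for Unc5a. The cause was not tested. The low-signal filter gave no value for Epha5, Ntng1, Sema3a, Slit1 and Unc5a. The members' median moved from 0.036 to 0.20 in laminectomy against normal cord, and from -0.15 to -0.36 in contusion against laminectomy, without laminectomy 2 and normal 1.

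Replicate numbers are shared between groups, but arrays with the same number did not deviate together (median correlation -0.0047 over 71 pairs, against 0.0049 over 140 pairs with other numbers). With the replicate block 0 members passed the threshold, and Slit1 turned to 0.011 in contused against uninjured cord.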
